A study of Homo sapiens with 6 samples.

Results

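Activator protein 1 (AP-1) is a family of transcription factors, and the 10 genes described here, FOS, FOSB, FOSL1, FOSL2, JUN, JUNB, JUND, ATF3, MAFF and BATF3, encode its subunits or close relatives of them. They are 10 of the 17631 genes for which values were deposited, and all 10 were found by their symbol. The genes were chosen by name with their differences between these same libraries already known, so their differences are given as a description, without a test. The cells were MDA-MB-231, a long-established human cell line of triple-negative breast cancer with a mesenchymal-like form. The labels name this line and also give breast cancer tissue as the source, and the cells are taken here as the line. In 3 libraries (vehicle) the cells had received vehicle, and in 3 (PDBAG1) they had received 30 µM PDBAG1 for 24 h, a synthetic peptide made of a cell-penetrating sequence joined to a stretch of the enzyme GPD1. The labels number the libraries 1 to 3 in each group and do not say whether they came from separate cultures, so that the spread between them may be technical.

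AP-1 proteins bind DNA as dimers through a basic region and a leucine zipper. JUN proteins pair with each other or with FOS proteins, whereas FOS proteins need a JUN partner to bind. FOS, FOSB, JUN and JUNB are classical immediate early genes, switched on within minutes of a growth factor or stress signal and soon switched off again, while FOSL1 (Fra-1) and FOSL2 (Fra-2) are made later and last longer. FOSL1 is known as the prominent FOS protein of mesenchymal-like breast cancer lines, in which RAS and ERK signalling keeps it high.

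Values are in TPM, the standard length-corrected unit of RNA-seq, so that different genes can be set side by side. They are levels of RNA, so shares of transcripts given below are not shares of protein or of dimers. The depth of the libraries is unknown, because TPM keeps no record of it. Differences were fitted with limma on the log2(TPM + 1) scale over the 12582 genes with at least 1 TPM in at least 3 libraries, and this scale understates the change of genes with low TPM. Of the 5 markers known to be high in the line, VIM was between 4174 and 5942 TPM and CD44, CAV1, AXL and MSN were between 309 and 589.6 TPM over all libraries. VIM, CD44 and MSN rose, with log2 fold changes of 0.46, 0.59 and 0.45, and CAV1 and AXL fell, with -0.30 and -0.26. Of the 6 markers known to be low or absent, CDH1 and PGR stayed under 1 TPM, ESR1 was between 1.96 and 3.38, GATA3 between 2.73 and 3.88, EPCAM between 3.92 and 5.78 and ERBB2 between 23.6 and 25.4 TPM, and the groups of each overlapped. The 4 adipocyte markers stayed under 1 TPM in every library, and of the 3 endothelial markers VWF and CDH5 did so while PECAM1 rose from 3.94 ± 0.152 to 8.64 ± 0.680 TPM (n = 3 per group, SD; limma adjusted p = 2.21e-06). Of the immune markers, CD3E and MS4A1 had no value, and PTPRC was at most 1.41 TPM. CD14 was between 6.72 and 7.70 TPM with vehicle and between 6.01 and 6.52 TPM with PDBAG1, and did not pass (limma adjusted p = 0.143). CD68 was between 251 and 264 TPM with vehicle and between 306 and 329 TPM with PDBAG1. The summed fibroblast markers, without DCN, which had no value, were between 5.53 and 5.96 TPM with vehicle. With PDBAG1 the sum was between 6.78 and 7.51 TPM. The part of these markers in the results below was not tested.

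All 10 AP-1 genes passed the filter on low values, and 8 of them were higher in each PDBAG1 library than in any vehicle library, against 27.2% of all genes tested. With PDBAG1, 9 were higher and none lower by the limma adjusted p of 0.05. Over all genes tested this call was made for 37.6%, of which 21.7% of the genes tested were higher and 15.9% lower. At the study's limits of an adjusted p under 0.05 and at least a 1.5-fold change, 5 of the 10 were called, FOS, FOSB, JUNB, JUND and ATF3, all higher, against 3.34% of all genes (2.86% higher and 0.477% lower). Since the members were selected on this contrast, nothing is read from these counts. The median log2 fold change was 0.47 over the 10 members and 0.03 over all genes tested. These are bulk libraries, in which more cells that make a transcript and more of the transcript per cell cannot be told apart.

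FOS, the founding member and a strong activator, was low in these cells. It was at 2.16, 2.23 and 1.76 TPM in vehicle libraries 1, 2 and 3 and at 9.62, 10.85 and 9.07 TPM in PDBAG1 libraries 1, 2 and 3. The 2 groups lay far apart, with a ratio of mean TPM of 4.80 and a log2 fold change of 1.83 (standard error 0.10). FOSB, its closest relative, was lower still, at 0.69, 0.39 and 0.70 TPM with vehicle and 3.61, 4.15 and 3.87 TPM with PDBAG1. The groups did not overlap, and the ratio of mean TPM was 6.53. FOSB passed the filter on low values only through its 3 PDBAG1 libraries, so that it had to differ to be tested. Its log2 fold change was 1.62 (standard error 0.12), and 2.55 with a pseudocount of 0.1 in place of 1. The values are per gene, so full-length FOSB and the shorter ΔFosB protein made from a spliced form were not separated.

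FOSL1 stood out by its level, which was the highest of the 10 members in every library and ranked 291 of 17631 genes in the vehicle group. It was at 463, 463 and 503 TPM with vehicle and at 563, 500.02 and 561 TPM with PDBAG1. The groups overlapped, since PDBAG1 library 2 lay just under vehicle library 3, and the log2 fold change was 0.18 (standard error 0.05). Under median-of-ratios scaling FOSL1 no longer passed the adjusted p of 0.05, with a log2 fold change of 0.15. FOSL2, which encodes the other late FOS protein, was at 55.1, 53.6 and 49.4 TPM with vehicle and at 57.7, 60.4 and 63.8 TPM with PDBAG1. The groups did not overlap, although the gap was narrow, with a log2 fold change of 0.20 (standard error 0.06). Without vehicle replicate 3 its log2 fold change was 0.15 and it no longer passed.

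Among the JUN family genes, JUNB and JUND differed far more between the groups than JUN. JUN, the strongest activator of the 3, was at 66.2, 67.1 and 67.8 TPM with vehicle and at 77.9, 76.5 and 78.1 TPM with PDBAG1. Both groups were tight and did not overlap, and the log2 fold change was 0.21 (standard error 0.04). JUNB, a weaker activator that can act against JUN, was at 35.0, 36.4 and 33.3 TPM with vehicle and at 75.8, 77.8 and 70.2 TPM with PDBAG1. Every PDBAG1 library lay far above every vehicle library, with a ratio of mean TPM of 2.14 and a log2 fold change of 1.07 (standard error 0.06). JUND, a broadly made JUN protein often tied to slower growth, was at 78.5, 79.6 and 77.2 TPM with vehicle and at 135, 124 and 128 TPM with PDBAG1. It was the most abundant JUN transcript in all 6 libraries, and its log2 fold change was 0.71 (standard error 0.05).

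The other 3 members did not move alike. ATF3, a stress-induced partner of JUN proteins, was at 5.30, 3.76 and 3.76 TPM with vehicle and at 7.43, 6.94 and 8.35 TPM with PDBAG1. The groups did not overlap, but the vehicle libraries spread widely, with library 1 above the other 2, and the log2 fold change was 0.71 (standard error 0.12). MAFF, a small MAF protein without an activation domain of its own, was at 49.9, 51.1 and 52.1 TPM with vehicle and at 61.2, 59.9 and 58.9 TPM with PDBAG1. Its groups did not overlap, with a log2 fold change of 0.23 (standard error 0.05). BATF3, known as a JUN partner in dendritic cells, was at 17.5, 13.6 and 14.8 TPM with vehicle and at 13.7, 11.9 and 14.5 TPM with PDBAG1. It was the 1 member with a lower mean in the PDBAG1 group, the groups overlapped, and its log2 fold change was -0.18 (standard error 0.10).

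**Figure D1:**
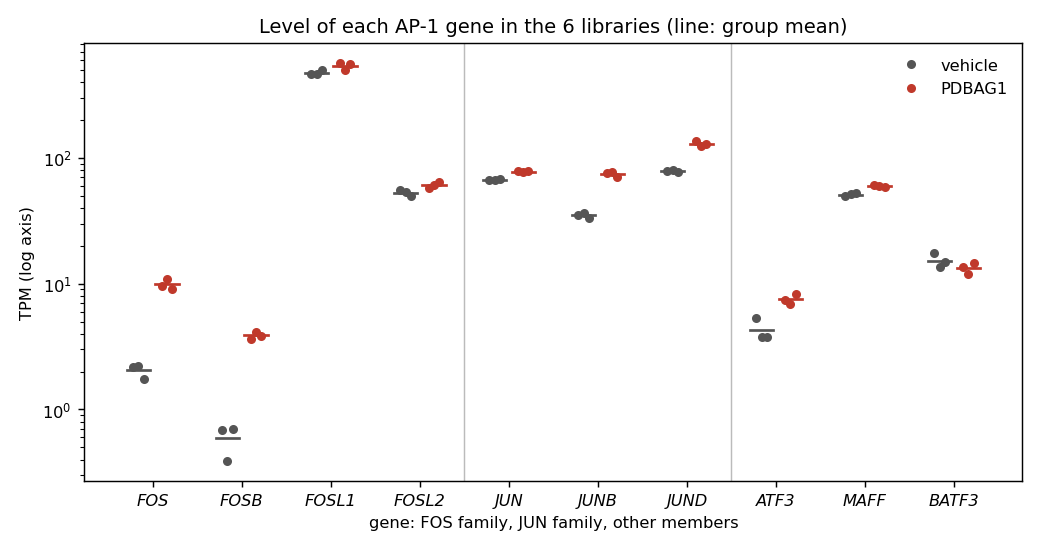
TPM (log axis) of the 10 AP-1 genes in each library, with vehicle in grey, PDBAG1 in red and a line at each group mean. FOSL1 sits near 500 TPM in both groups, whereas FOS and FOSB start near or under 2 TPM and lie higher with PDBAG1, and the points of FOSL1 and BATF3 overlap between the groups.

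The order of the mean levels in the vehicle group ran from FOSL1 (476 ± 22.9 TPM) through JUND (78.4 ± 1.21), JUN (67.0 ± 0.813), FOSL2 (52.7 ± 2.96), MAFF (51.0 ± 1.11), JUNB (34.9 ± 1.57), BATF3 (15.3 ± 2.00), ATF3 (4.27 ± 0.889) and FOS (2.05 ± 0.254) to FOSB (0.593 ± 0.176; all SD, n = 3). Of these neighbours, only FOSL2 and MAFF had overlapping libraries. In the PDBAG1 group JUNB (74.6 ± 3.93 TPM) stood above FOSL2 (60.6 ± 3.05) and MAFF (60.0 ± 1.17), and its libraries overlapped those of JUN (77.5 ± 0.863; all SD, n = 3). FOS (9.85 ± 0.911 TPM) lay above ATF3 (7.57 ± 0.716 TPM; n = 3 per group, SD), the reverse of their order with vehicle. The ratio of JUNB to JUN was 0.521 ± 0.0269 with vehicle and 0.963 ± 0.0596 with PDBAG1 (n = 3 per group, SD).

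Taking the FOS family (FOS, FOSB, FOSL1, FOSL2) and the JUN family (JUN, JUNB, JUND) together, FOS transcripts outweighed JUN transcripts in every library, by less with PDBAG1. The FOS family made up 74.4%, 73.9% and 75.7% of the summed TPM of both families in the vehicle libraries and 68.7%, 67.4% and 69.8% in the PDBAG1 libraries. The means were 74.6% ± 0.913 and 68.6% ± 1.18 (n = 3 per group, SD), a difference of -6.00 percentage points (standard error 0.862), with no overlap. The ratio of FOS to JUN family TPM was 2.95 ± 0.145 with vehicle and 2.19 ± 0.120 with PDBAG1 (n = 3 per group, SD). Both sums were higher with PDBAG1, that of the FOS family at 616 ± 35.0 against 531 ± 19.9 TPM and that of the JUN family at 281 ± 6.64 against 180 ± 2.49 TPM (n = 3 per group, SD).

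FOSL1 alone held 66.1%, 65.9% and 68.6% of the summed TPM of both families with vehicle and 61.1%, 58.6% and 61.4% with PDBAG1. Its share was thus lower in every PDBAG1 library although its mean level was not. JUND held 11.0% ± 0.431 with vehicle and 14.4% ± 0.329 with PDBAG1, and JUNB held 4.91% ± 0.331 and 8.33% ± 0.724 (n = 3 per group, SD), both without overlap. The share of JUN was smaller with PDBAG1, at 8.65% ± 0.278 against 9.42% ± 0.154 (n = 3 per group, SD), also without overlap, while that of FOSL2, at 6.77% ± 0.452 against 7.41% ± 0.594, overlapped. FOS took 0.289% ± 0.0423 with vehicle and 1.10% ± 0.149 with PDBAG1, and FOSB 0.0832% ± 0.0240 and 0.434% ± 0.0484 (n = 3 per group, SD). FOS and FOSB, which had the largest fold differences, therefore stayed minor transcripts of the pool in all 6 libraries.

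**Figure D2:**
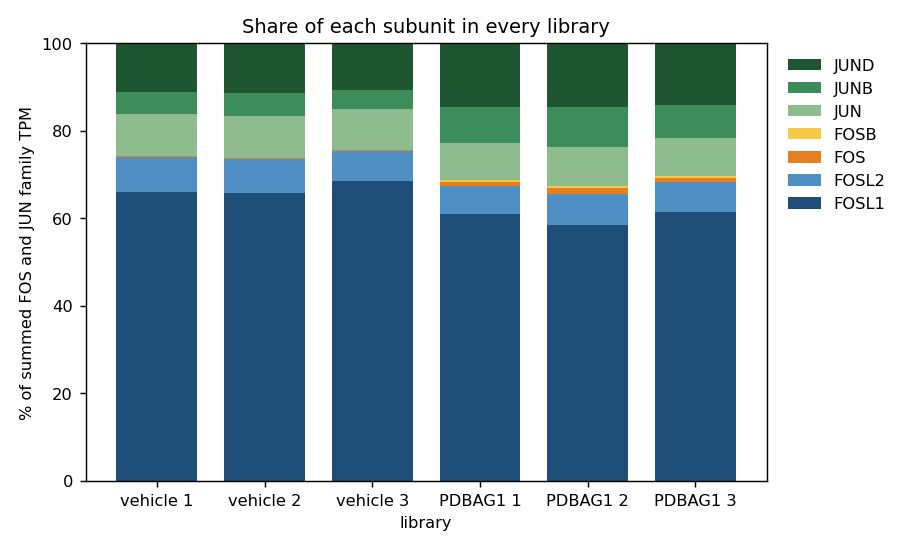
Stacked bars give the percent of the summed FOS and JUN family TPM held by each of the 7 subunits, with a bar for each library. The FOSL1 block is shorter and the JUNB and JUND blocks are taller in the 3 PDBAG1 bars, and FOS and FOSB stay thin bands at 1.10% and 0.434% on average.

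Within the families, FOSL1 held 89.6% ± 0.951 of FOS family TPM with vehicle and 87.9% ± 0.965 with PDBAG1 (n = 3 per group, SD). Its lowest vehicle share and highest PDBAG1 share were 88.9% and 88.8%, which is close to an overlap. In the JUN family the share of JUN was 37.2% ± 0.755 with vehicle and 27.6% ± 0.648 with PDBAG1, and that of JUNB was 19.4% ± 0.619 and 26.6% ± 1.30 (n = 3 per group, SD). JUND changed its place within the family least, from 43.5% ± 0.189 to 45.9% ± 1.19 (n = 3 per group, SD).

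Counted in TPM, the summed mean of both families was 185 higher with PDBAG1, from 712 ± 18.1 to 897 ± 37.8 TPM (n = 3 per group, SD). FOSL1 accounted for 35.4% of that difference, JUND for 27.3% and JUNB for 21.4%. JUN added 5.67%, FOSL2 4.29%, FOS 4.21% and FOSB 1.77%. The members with the steepest fold differences thus added little to the pool, and the abundant FOSL1 added most despite its small fold difference and its overlapping libraries.

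**Figure D3:**
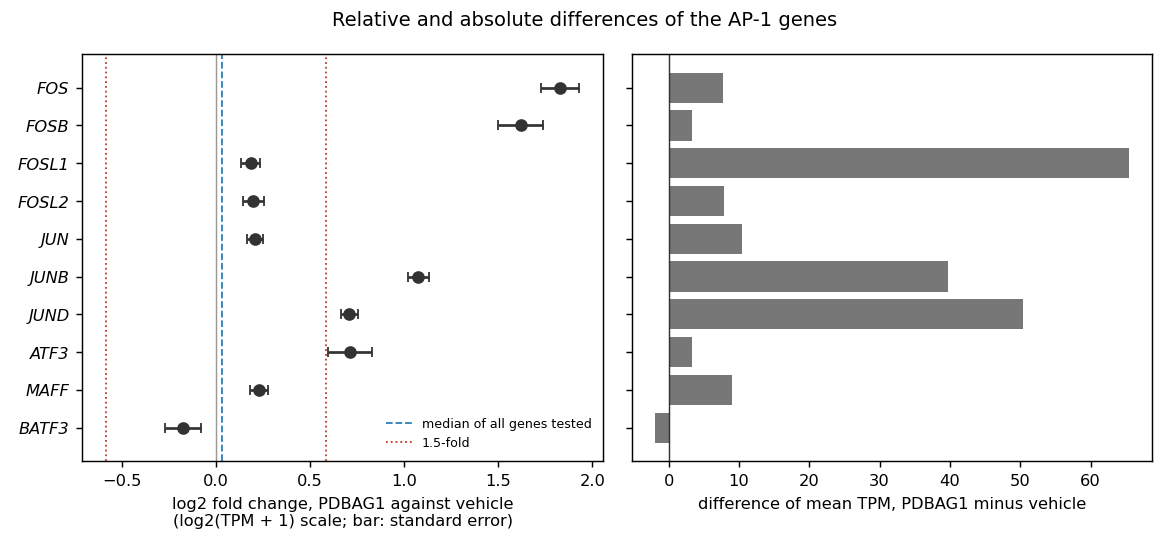
Left, log2 fold change of each AP-1 gene on the log2(TPM + 1) scale with its standard error, the median of all genes tested (dashed) and the 1.5-fold limit (dotted). Right, the difference of the group means in TPM, where FOSL1 (65.4), JUND (50.4) and JUNB (39.7) have the longest bars while FOS and FOSB, with the largest fold changes, have short ones.

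JUN, JUNB and JUND are genes of 1 exon in their canonical GENCODE v44 transcripts, as are 1.91% of the tested genes with an annotated 3 prime UTR, whereas FOS, FOSB, FOSL1, FOSL2 and ATF3 have 4 exons. JUN lies on chromosome 1 (58776845 to 58784048, GRCh38, GENCODE v44), JUNB on chromosome 19 (12791486 to 12793315) and JUND on the same chromosome (18279694 to 18281622), which also carries FOSB (45467995 to 45475179). FOS lies on chromosome 14 (75278826 to 75282230) and FOSL1 on chromosome 11 (65892049 to 65900573). ATF3 (chromosome 1, 212565334 to 212620777) and BATF3 (chromosome 1, 212686417 to 212699840) are neighbours, 65.6 kb apart.

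Promoter sequences from RefSeq (GRCh38.p14) were found for 8 of the 10 members, all but FOSL1 and BATF3. AP-1 genes are known to be controlled in part by cyclic AMP response elements (CRE), which CREB, ATF and JUN proteins bind, so the 250 bases before each annotated start were searched on both strands. The RefSeq starts used here are not in every case the GENCODE gene starts given above. The matches of FOSL2 and MAFF lie inside the GENCODE genes (chromosome 2, 28392448 to 28417317, and chromosome 22, 38200767 to 38216507), so that they are upstream of the RefSeq start only. The RefSeq start of ATF3 also lies inside its GENCODE gene, but its match lies before both starts. The CRE core TGACGT occurred upstream of the RefSeq starts of FOS, FOSB, FOSL2, JUND and MAFF, in 5 of the 10 member windows and in 7.10% of all 35116 windows of the same length (ATF3 and MAFF have 2 windows each). The full CRE TGACGTCA, which contains the core, was found for JUND and MAFF and in 1.65% of all windows. The variant TGACATCA, known from the JUN promoter as a site for JUN and ATF2 dimers, was found for JUN and ATF3 and in 2.37% of all windows. The 7 stretches are shown because, of the members with a promoter sequence, only JUNB had neither the core nor the variant. Each is printed 5′ to 3′ on the strand of its gene, with the matched letters in capitals.
FOS, chr14:75278739-75278794, plus strand: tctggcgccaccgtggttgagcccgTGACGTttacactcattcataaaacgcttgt
FOSB, chr19:45467911-45467966, plus strand: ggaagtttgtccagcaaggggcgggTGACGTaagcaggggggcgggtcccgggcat
FOSL2, chr2:28392767-28392822, plus strand: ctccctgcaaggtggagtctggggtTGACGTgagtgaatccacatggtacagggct
JUND, chr19:18281790-18281847, minus strand: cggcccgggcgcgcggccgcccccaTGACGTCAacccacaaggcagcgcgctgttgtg
MAFF, chr22:38201915-38201972, plus strand: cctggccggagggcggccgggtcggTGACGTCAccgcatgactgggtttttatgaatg
JUN, chr1:58784082-58784139, minus strand: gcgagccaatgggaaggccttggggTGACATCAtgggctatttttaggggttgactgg
ATF3, chr1:212565259-212565316, plus strand: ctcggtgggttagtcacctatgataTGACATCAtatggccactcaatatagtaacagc

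The matches of FOS, FOSB, FOSL2 and JUN ended at bases -59, -55, -61 and -60 from the annotated start, close to one another, and that of MAFF ended at -47. In JUND the full CRE ended at -193 and another core on the opposite strand at -82, and in ATF3 the variant ended at -116. FOS, FOSB and FOSL2, which carried the core at nearly the same place, had log2 fold changes of 1.83, 1.62 and 0.20. JUNB, with 1.07, carried none of the motifs searched. Whether these motifs have a part in the differences between the groups was not tested. The AP-1 site TGACTCA, present in 4.20% of all windows, and the CArG box, the site of serum response factor, present in 1.16%, had no match in the member windows, which says only that these letters do not occur in these 250 bases.

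**Figure D4:**
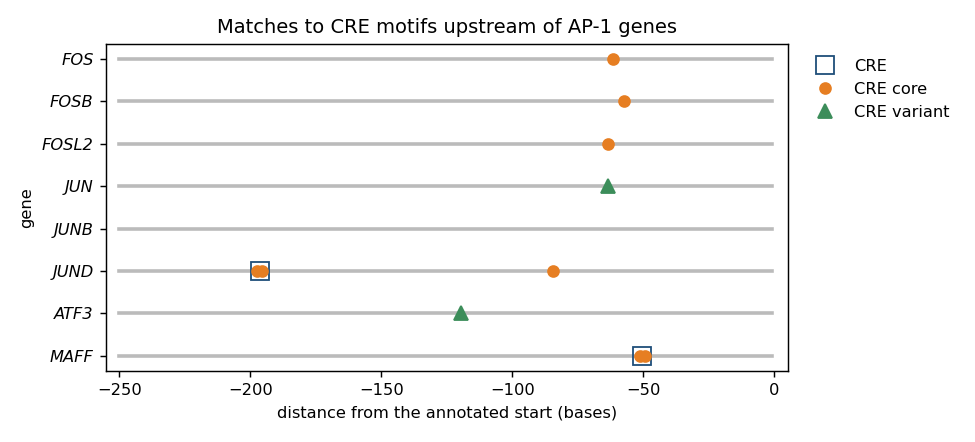
Places of matches to the CRE core, the full CRE and the CRE variant in the 250 bases before the annotated start of 8 AP-1 genes, in bases from the start. The matches of FOS, FOSB, FOSL2 and JUN lie close together near -60 and JUNB has none. The other windows of ATF3 and MAFF, without matches, are not drawn.

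The surrounding pathway was described with 7 lists of genes that share no gene with each other or with the members. Over all genes tested the calls at 1.5-fold were 360 higher and 60 lower (287 and 93 under quantile normalization), and those by adjusted p alone 2736 higher and 2000 lower (2404 and 2741 under quantile normalization). Of the 7 lists, other immediate early genes and known AP-1 targets had the highest medians. The lists were chosen with earlier results of these data known, so nothing is read from this order. The list genes given with an adjusted p were picked from those that passed it. Exceptions are EGR1, SRF and the genes marked as named after their values were seen. The adjusted p of the picked genes was thus under 0.05 by that choice and is given as a description.

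Of 15 other immediate early genes, which like FOS respond within minutes to signals, 10 were tested. By the limma adjusted p of 0.05, 8 of them rose and 1 fell (IER5, log2 fold change -0.17), and 5 were called at 1.5-fold. Together 90% of those tested passed the adjusted p against 37.6% of all genes, and 50% were called against 3.34%. The list's median log2 fold change was 0.59 against 0.03 over all genes. NR4A1, a nuclear receptor without a known ligand, rose from 1.41 ± 0.133 to 7.49 ± 0.655 TPM (n = 3 per group, SD), with a log2 fold change of 1.82 and a limma adjusted p of 1.51e-08. Its relative NR4A2 rose from 1.00 ± 0.0569 to 4.45 ± 0.326 TPM (n = 3 per group, SD), a log2 fold change of 1.44. EGR1, a zinc finger factor, rose from 5.91 ± 0.639 to 14.3 ± 1.41 TPM (n = 3 per group, SD), with a log2 fold change of 1.14 and a limma adjusted p of 7.79e-07. MYC was at 92.0, 93.4 and 92.3 TPM with vehicle and at 91.3, 87.6 and 86.9 TPM with PDBAG1 and did not pass (limma adjusted p = 0.274), and EGR2, EGR3, EGR4, NR4A3 and BTG2 were too low to be tested. MYC and IER5 were named after their values were seen.

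The upstream kinases are 20 genes of the ERK, JNK, p38 and RSK families and their activators. Of 18 tested, 9 rose and 2 fell at a limma adjusted p under 0.05, together 61.1% against 37.6% of all genes tested. None was called at 1.5-fold, against 3.34% of all genes. The median log2 fold change was 0.16 against 0.03 over all genes. MAPK7, which encodes a kinase of the ERK group, rose from 14.2 ± 0.795 to 21.1 ± 0.447 TPM (n = 3 per group, SD), a log2 fold change of 0.54, MAPK13, a p38 kinase, by 0.47 and MAP2K1, the ERK activator MEK1, by 0.39 on the log2 scale. Both genes that fell, MAPK8 and MAPK12, were named after their values were seen, encode a JNK and a p38 kinase and had log2 fold changes of -0.16 and -0.22. Both passed narrowly (limma adjusted p = 0.0436 and 0.0396), and the groups of MAPK8 overlapped. Without vehicle replicate 3 the number past the threshold was 7 in place of 11.

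MAPK phosphatases, which switch ERK, JNK and p38 off and are themselves induced by these kinases, gave 8 tested genes of 10. Of these 6 rose and none fell at a limma adjusted p under 0.05, or 75% of those tested against 37.6% of all genes. At 1.5-fold 2 were called, or 25% against 3.34%. The median log2 fold change was 0.37. DUSP10, which acts on JNK and p38, rose from 14.3 ± 0.136 to 29.1 ± 2.195 TPM (n = 3 per group, SD), with a log2 fold change of 0.98 and a limma adjusted p of 1.54e-07. DUSP6, which acts on ERK, rose from 114 ± 4.69 to 181 ± 9.67 TPM (n = 3 per group, SD), a log2 fold change of 0.67, and DUSP5, a nuclear ERK phosphatase, by 0.56 on the log2 scale.

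Of the 9 SRF, ETS and CREB factors known to act at FOS, EGR1 and FOSL1, 5 rose and none fell at a limma adjusted p under 0.05. These are 55.6% of the list, against 37.6% of all genes tested. None was called at 1.5-fold, against 3.34% of all genes, and the median log2 fold change was 0.18. ELK3 rose by 0.37 and ETS1 by 0.35 on the log2 scale (limma adjusted p = 0.000288 and 0.000249), and MRTFA by 0.22 (limma adjusted p = 0.0373). MRTFA lost its call when any of the 6 libraries was left out, and the count was 3 without PDBAG1 replicate 2, PDBAG1 replicate 3, vehicle replicate 2 or vehicle replicate 3. SRF itself was at 38.8 ± 0.603 with vehicle and 37.5 ± 0.622 TPM with PDBAG1 (n = 3 per group, SD), a log2 fold change of -0.05 that did not pass (limma adjusted p = 0.499).

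Other basic leucine zipper partners gave 11 tested genes of 13, of which 5 rose and none fell at a limma adjusted p under 0.05. These are 45.5% of those tested, against 37.6% of all genes. None was called at 1.5-fold on the log2(TPM + 1) scale, against 3.34% of all genes, and the median log2 fold change was 0.18. CREB5 rose from 3.20 ± 0.185 to 4.93 ± 0.340 TPM (n = 3 per group, SD), with a log2 fold change of 0.50 and a limma adjusted p of 0.00107. Its ratio of mean TPM was 1.54, and with a pseudocount of 0.1 in place of 1 its log2 fold change was 0.61 and 1 gene of the list was called at 1.5-fold. MAFK, a small MAF protein like MAFF, rose by 0.48 and NFE2L1, a partner of small MAF proteins, by 0.27 on the log2 scale. Of 7 genes for the turnover of AP-1 proteins, all tested, 1 passed: COPS5 (JAB1), a JUN cofactor, fell by 0.12 on the log2 scale (limma adjusted p = 0.0370), a call that was lost when any of the 6 libraries was left out. That 1 gene is 14.3% of the turnover genes, against 37.6% of all genes tested. None of them was called at 1.5-fold, against 3.34% of all genes, and their median log2 fold change was 0.08.

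Known AP-1 targets gave 27 tested genes of 30, and many of them also answer to NF-kB or hypoxia signalling. Of these 20 rose and 5 fell at a limma adjusted p under 0.05, and 10 rose by at least 1.5-fold, with a median log2 fold change of 0.46. Together 92.6% of those tested passed the adjusted p against 37.6% of all genes, and 37.0% were called at 1.5-fold against 3.34%. MMP10 is among those that rose by 1.5-fold and, with vehicle libraries at 0.95, 0.96 and 0.32 TPM, passed the filter only through its 3 PDBAG1 libraries, so that it had to be higher to be tested. With 1 TPM required in every library, 24 genes of the list passed the adjusted p and 9 were called at 1.5-fold. PTGS2 (cyclooxygenase 2) rose from 5.08 ± 0.481 to 28.8 ± 1.66 TPM (n = 3 per group, SD), with a log2 fold change of 2.29 and a limma adjusted p of 3.05e-10. CSF2, the growth factor GM-CSF, had a log2 fold change of 1.36, and VEGFA, the vessel growth factor, rose from 81.2 ± 4.22 to 191 ± 5.42 TPM (n = 3 per group, SD), a log2 fold change of 1.23. The 5 genes that fell, named after their values were seen, were EDN1 with a log2 fold change of -0.46, GJA1 with -0.34, AXL with -0.26, FST with -0.25 and CCND1 with -0.12. Among them CCND1 encodes the cell cycle regulator cyclin D1 and EDN1 the peptide endothelin 1.

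**Figure D5:**
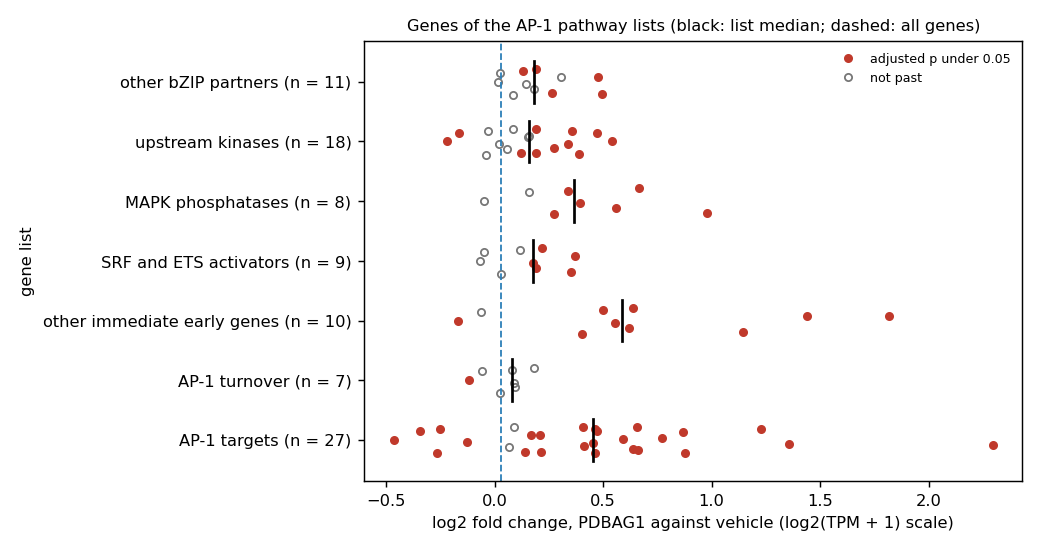
Log2 fold change, on the log2(TPM + 1) scale, of each tested gene of the 7 pathway lists, filled red where the limma adjusted p was under 0.05 and open grey where not, with the list median in black and the median of all genes (0.03) dashed. Immediate early genes and AP-1 targets reach furthest to the right, with medians of 0.59 and 0.46. The lowest medians are those of kinases (0.16) and turnover genes (0.08), and single kinases lie between -0.22 and 0.54.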

How the data were processed

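The values the authors deposited are TPM per gene, rounded to 2 decimals, with 1 table per library. The submitters' processing notes name HISAT2 2.0.4, Bowtie2 2.2.5, RSEM 1.2.12 and GRCh38.p12, whereas the methods of the study name HISAT2, GRCh38.p13 and FPKM for mRNA libraries sequenced on a BGISEQ platform; the annotation and any filters are not given in the sources used here. TPM keeps no depth and no counting error, so precision rests on 3 libraries per group.

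The filter required 1 TPM or more in any 3 libraries, the pseudocount was 1, and log2(TPM + 1) was fitted in R 4.3.3 with limma 3.58.1 (lmFit, eBayes with trend; treatment only), with Benjamini-Hochberg adjustment over all genes tested. The call limits were an adjusted p of 0.05, alone or with a 1.5-fold change. With 3 libraries against 3 no exact two-sided permutation p can fall under 0.1, so single values were not tested in that way. The fit was tested on simulated data. The members and lists were chosen with earlier results of these data known. From each list up to 3 genes were named, those past the adjusted p, without overlap and with a mean TPM of at least 1 that had the largest absolute log2 fold change, and EGR1 and SRF whatever their value. Gene positions come from GENCODE v44 (GRCh38), joined on the Ensembl identifier, and promoters from RefSeq (GRCh38.p14), joined on the numeric gene identifier. Alternatives were no filter, a filter of 1 TPM or more in all 6 libraries, a pseudocount of 0.1, median-of-ratios scaling, quantile normalization, a block for the replicate number, omission of each library in turn, and for shares a denominator of all 10 members.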

Additional observations from a re-analysis of the deposited data

How the results depend on the processing

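Under the alternatives run, no member changed direction, nor did any list gene named by the rule, whereas the list genes and markers named after their values were seen were not run. The numbers of members past either limit, and of genes past them over all 7 lists together, stayed within 1.5 times those of the fit reported, but single lists moved by more, as given beside them in the report and with the block below. The number of members past the adjusted p was 8 to 10, and BATF3 was the tenth, under quantile normalization. The difference in FOS family share was -5.57 percentage points under quantile normalization, -4.95 with all 10 members in the denominator, and between -6.57 and -5.39 with each library left out. With a pseudocount of 0.1 the log2 fold changes of FOS and FOSB were 2.21 and 2.55. Under median-of-ratios scaling those of JUN and MAFF were 0.17 and 0.20, in place of 0.21 and 0.23. These shifts were larger than the SD of either gene within a group, and both genes still passed the adjusted p. MRTFA was also not past the limit without the filter, under quantile normalization or with the block. The replicate numbers share no stated origin, and the deviations of libraries with 1 number in common had correlations of -0.21, 0.01 and -0.08. With the number as a replicate block 5 members were called at 1.5-fold and 9 passed the adjusted p, 3 of the SRF and ETS genes passed in place of 5, and 0 of the turnover genes in place of 1. Without known depth, values near 1 TPM, such as those of FOSB with vehicle, carry an unknown counting error.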

Other observations

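Short-lived messages of immediate early genes are known to carry AU-rich elements in the 3 prime UTR, built from the pentamer ATTTA. In the canonical GENCODE v44 transcripts each of the 10 members had at least 1 such pentamer, as did 72.7% of the 12353 tested genes with an annotated 3 prime UTR. FOS was the densest of the members, with 5 pentamers in 806 bases, or 6.20 per kb against a median of 1.72 per kb over those genes, followed by JUNB with 2 in 500 bases. FOSL1, with 1 pentamer in 837 bases, or 1.19 per kb, was the sparsest of the members. The longer element TTATTTATT was present in FOS, FOSL2 and MAFF, that is in 3 of the 10 members, and in 9.56% of the tested genes.

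The genes whose log2(TPM + 1), centred on its own mean, lay nearest to that of FOS over the 6 libraries (Euclidean distance) were DEPP1 at 0.18, BHLHE40 at 0.24, PPFIA4 at 0.24, IL1B at 0.26 and RRAD at 0.32, with log2 fold changes of 1.75, 1.92, 1.83, 1.77 and 1.76. Those nearest to FOSL1 were GPR3 at 0.06, SLC66A3 at 0.07, TRAF4 at 0.08, R3HDM4 at 0.08 and TNFRSF12A at 0.08, with log2 fold changes of 0.20, 0.18, 0.16, 0.18 and 0.21. With 2 groups of 3 libraries this likeness mostly reflects the difference between the groups.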
